A study of Cucumis sativus with 6 samples.

Results

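The genes described here are the annotated cucumber gene models whose mean normalized read count was at least 2 times higher in *Csalc* ovaries than in wild type (WT) ovaries. They were chosen by the ratio of the group means itself, with an overall mean (the mean of both group means) of at least 10 normalized counts and with reads in both groups. The rule took 79 genes of the 17958 that passed its minimum, a share of 0.44%, out of 23955 transcripts in the table. Because the ratio chose them, their being higher in *Csalc* is a description and was not tested. The values below describe how large the ratios were, at which expression levels, and how the single libraries behind each mean compared with one another.

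RNA was sequenced from ovaries with stigma of inbred line XTMC at 32 h after pollination, in 3 WT libraries and 3 libraries of the *Csalc*-/- genotype. The mutant carries a frameshift in exon 1 of *CsALC*, a bHLH transcription factor gene, made with CRISPR-Cas9. Several homozygous *Csalc* lines exist, and the sources used here do not say whether the *Csalc* libraries came from one line or from several, so differences between lines and between ovaries of one line cannot be told apart. In bulk ovary tissue, a higher count can come from more cells of one type or from more RNA per cell, and these cannot be told apart either.

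The guide that produced the mutant is shown because every comparison below rests on the edit it made. The capitals mark the 19 bases directed at exon 1, and the 4 bases in lower case before them are the cloning overhang of the oligo, written 5′ to 3′.
CsALC guide oligo: attgAACAGAGGTGGAATCGGGC

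After pollination, pollen tubes grow through the transmitting tract of the ovary, leave it and enter the ovules, and the maternal tissue supplies signals, nutrients and wall material along this path. Transcription factors of the ethylene response family, cytochrome P450 enzymes and small proteinase inhibitors are gene families that plants use in hormone responses, in the synthesis of secondary compounds and in defence. Members of each of these families were among the genes that were higher in *Csalc*. Descriptions were at hand for 4 of the 79 genes, and the other 75 are given by identifier only. The 4 descriptions come from the study's list of genes it called changed, and the other 75 genes are not on that list. The study drew the list from these same libraries, so the 4 are not an independent sample of the functions present.

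The deposited table holds 1 mean per gene and group. The mean averages 3 libraries, in each of which the whole reads had been divided by a size factor (a number that follows sequencing depth). The reads of the single libraries could therefore be worked out wherever only 1 combination of whole reads gives the printed mean. Libraries are lettered by falling size factor within a group, a being the deepest and c the shallowest, since no replicate number can be tied to them. The size factor was 1.07 for all 3 *Csalc* libraries, while the WT values were 1.06, 1.01 and 0.782, which makes WT library c the shallowest of the 6. Both groups were recovered for 60 of the 79 genes. In 14 others the *Csalc* mean allowed more than 1 combination, and in 5 it lay above 700 normalized counts, where no search was made. The edited gene, *CsALC* (Csa2G356640), averaged 238 normalized counts in the mutant and 395 in WT, which does not bear on the frameshift itself. *CsSPT* (Csa6G491000), a gene of the transmitting tract, averaged 242 and 222, so this marker of the tissue was detected at close levels in both groups.

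Csa4G023020 encodes an ethylene-responsive transcription factor, a family of DNA-binding proteins that act downstream of ethylene. It averaged 281 normalized counts in the mutant and 82.2 in WT, a 3.41-fold ratio (1.77 on the log2 scale). In WT the libraries held 94.5 (a), 86.9 (b) and 65.2 (c) normalized counts (SD of 15.2, n = 3). For *Csalc* 3 combinations fit the mean. In the most even of them, all *Csalc* libraries, at 337, 243 and 261, lay above every WT library. In each of the other combinations 1 *Csalc* library, at 81.5 or 80.2, lay inside the WT range, so whether the groups overlapped could not be settled for this gene.

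Csa2G425740 encodes a putative cytochrome P450, a heme enzyme family that oxidizes small molecules. Its *Csalc* libraries a, b and c held 68.9, 62.5 and 92.8 normalized counts and its WT libraries 7.56, 20.7 and 11.5. All *Csalc* libraries were high and the groups were far apart, with the lowest *Csalc* library 3.01 times the highest WT library. The means were 74.7 ± 16.0 in *Csalc* and 13.3 ± 6.76 in WT (SD, n = 3 each), a 5.63-fold ratio. With any 1 of the 6 libraries left out, the ratio of this gene stayed between 4.63 and 7.84. Among the 60 recovered genes its lowest *Csalc* library stood highest above the WT libraries.

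Csa3G914580 encodes a chymotrypsin inhibitor of the potato inhibitor I family, small proteins that block serine proteinases. It was one of the most abundant of the 79 genes, averaging 2781 normalized counts in the mutant and 1378 in WT, and its ratio of 2.02 was the smallest of all 79. Both means lay above the range of the search, so the values of its single libraries are not known.

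Csa5G505220, which encodes a protein with a plant-specific TIGR01589 domain, averaged 157 normalized counts in the mutant and 24.6 in WT, a 6.38-fold ratio. Its WT libraries were close together at 22.7, 25.7 and 25.6 normalized counts (SD of 1.71, n = 3). For *Csalc*, either all libraries were high, at 178, 168 and 126, or library b was low, at 4.66, with libraries a and c at 161 and 306. The first possibility separates the groups and the second does not.

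Most of the ratios were small. The median ratio over the 79 genes was 2.34 (a median log2 ratio of 1.23, against -0.012 over the 17958 genes). The ratio was under 2.5 in 48 genes, between 2.5 and 3 in 16, between 3 and 5 in 11, and at least 5 in 4. Most of the genes were also weakly expressed, with a median overall mean of 37.6 normalized counts against 562 for all genes that could be chosen. The overall mean was under 20 in 21 genes, between 20 and 100 in 37, between 100 and 500 in 16, and at least 500 in 5. At least 2-fold higher means were found in 2.69% of the reference genes with an overall mean of 10 to 20 and in 0.0525% of those with 500 or more, so the share taken by the rule was larger among weakly expressed genes.

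**Figure D1:**
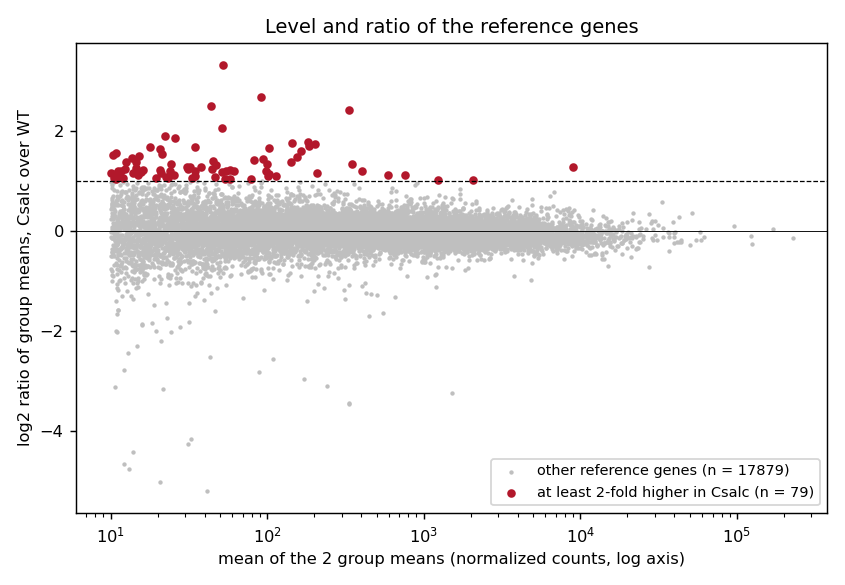
Overall mean (x axis, normalized counts, log axis) against the log2 ratio of the group means, *Csalc* over WT (y axis), for each of the 17958 reference genes, with the 79 chosen genes in red and the dashed line at a log2 ratio of 1. The red points are mostly at the left, where the spread of all genes around 0 is widest, and 5 of them have an overall mean of at least 500.

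Of the 5 most abundant genes, all but Csa6G518000 had ratios near the threshold. Csa6G518000 was the most abundant, averaging 12660 normalized counts in the mutant and 5253 in WT, a 2.41-fold ratio. It alone held 48.4% of the summed *Csalc* means of the 79 genes and 48.1% of their summed WT means. Csa7G073660 had 1652 and 818 normalized counts, a 2.02-fold ratio. Csa6G091870 had 1045 in *Csalc* and 483 in WT, a 2.16-fold ratio, and its WT libraries at 485, 469 and 496 differed little (SD of 13.7, n = 3). Csa6G517220 had 810 in *Csalc* and 374 in WT, also 2.16-fold, and its WT libraries ranged more widely, from 295 to 448. The single *Csalc* libraries of these genes are not known, so the spread behind their *Csalc* means cannot be given.

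The largest ratio, 9.95, belonged to Csa4G285730. Its *Csalc* libraries a, b and c held 19.6, 78.3 and 188 normalized counts, and its WT libraries 0.945, 22.7 and 5.12. The libraries of each group differed widely, and *Csalc* library a lay below WT library b, so the groups overlapped. The WT value of library a was 1 read. Without *Csalc* library c the ratio of this gene was 5.10, and without WT library b it was 31.5.

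Csa3G362650, the fifth by ratio, had a ratio of 4.15 and values of 122, 69.9 and 57.2 normalized counts in *Csalc* against 26.4, 24.7 and 8.95 in WT. All *Csalc* libraries were above all WT libraries, by at least 2.16-fold. Csa6G136580 had a ratio of 3.70, with 22.4, 64.3 and 17.8 in *Csalc* and 9.45, 9.87 and 8.95 in WT. Its groups did not overlap, but library b was far above the other *Csalc* libraries, and without it the ratio was 2.13. Csa6G501990 had a ratio of 3.59, with 21.4, 59.7 and 39.4 in *Csalc* and 10.4, 16.8 and 6.40 in WT, again without overlap.

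The remaining genes among the largest ratios allowed several combinations of *Csalc* reads. Csa2G249780 had a 5.29-fold ratio, from means of 558 in *Csalc* and 105 in WT, where the libraries held 115, 116 and 85.7. Library b was the highest *Csalc* library in all 3 of its combinations, at 824, 987 or 1151 normalized counts, and the groups overlapped only in the last. Csa6G507370, with means of 223 and 65.9 and a ratio of 3.38, and Csa1G002810, with 312 and 93.6 and a ratio of 3.33, had every *Csalc* library above every WT library whichever combination was taken. For both, the combinations disagreed on whether library b or library c was the highest.

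**Figure D2:**
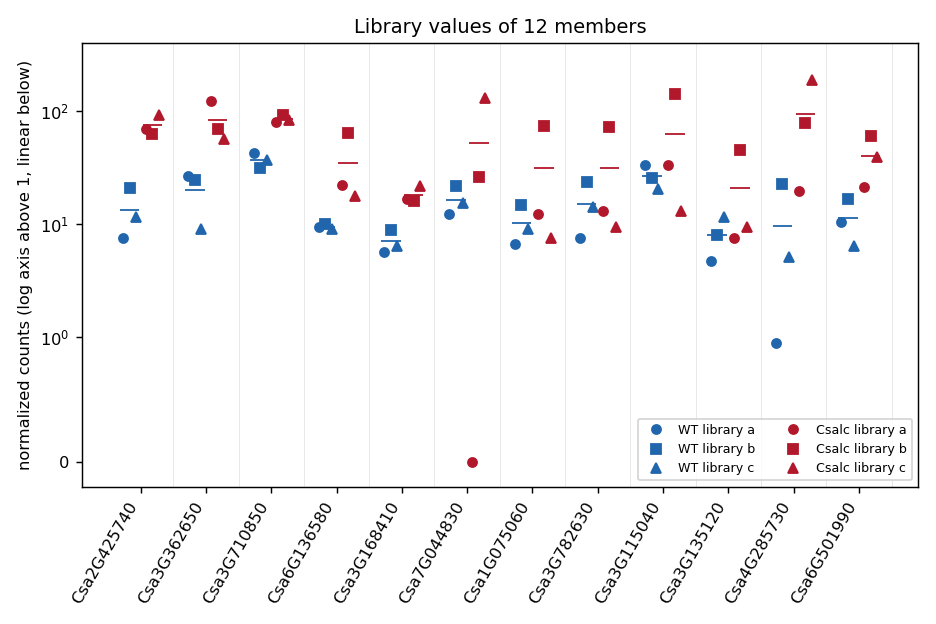
Normalized counts (y axis, log axis above 1 and linear below) of the single libraries of 12 recovered genes (x axis), WT in blue and *Csalc* in red, with circles for library a, squares for b and triangles for c, and short lines at the group means. In Csa2G425740, Csa3G362650, Csa3G710850, Csa6G136580 and Csa3G168410 the red points all lie above the blue ones, while in Csa7G044830, Csa1G075060, Csa3G782630, Csa3G115040 and Csa3G135120 a single red point lies far above the rest.

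Every *Csalc* library was above every WT library in 32 of the 60 recovered genes (53.3%), and the same held for 5.65% of the 4481 recovered reference genes above the minimum mean. The rule used the same means, so genes with separate groups had to be more frequent here, and nothing is read from the difference. In the 28 other recovered genes the groups overlapped in spite of a ratio of at least 2. In 22 of these 2 *Csalc* libraries exceeded the highest WT library, and in 6 a single *Csalc* library did. Among all recovered reference genes, 78.3% had at most 1 *Csalc* library above the highest WT library. In the 14 genes with several combinations, the groups were separate in all combinations of 4 genes, in some combinations of 5 and in none of 5. Reference genes with several combinations were not counted, and the 5.65% does not cover them, so nothing is read from these numbers.

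Genes with separate groups and even libraries were found at several levels. Csa3G710850 had 80.1, 92.3 and 83.4 normalized counts in *Csalc* against 42.5, 31.6 and 37.1 in WT, with means of 85.3 ± 6.31 and 37.1 ± 5.46 (SD, n = 3 each) and a ratio of 2.30. Its libraries were tightly grouped on both sides, and with any 1 library left out its ratio stayed between 2.14 and 2.48. Csa3G168410 was near the lower limit of expression, with 16.8, 15.9 and 21.6 in *Csalc* and 5.67, 8.89 and 6.40 in WT. Its groups were also separate, but its WT values rest on 6, 9 and 5 reads. Csa6G520430, singled out after its values were seen, had the most even *Csalc* libraries of the 60 genes, at 139, 146 and 132 normalized counts, against 77.5, 60.2 and 57.6 in WT, and its ratio of 2.14 stayed between 2.02 and 2.36 without any 1 library.

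The opposite pattern was a mean carried by 1 library. Csa7G044830 showed it most strongly. Library c held 132 normalized counts, library b 26.1 and library a none, against 12.3, 21.7 and 15.4 in WT, so 83.5% of the *Csalc* total came from library c. The 0 reads in library a allow up to 3 reads, or 2.79 normalized counts, which is still below each WT library. This limit covers counting error only. Without library c the ratio of this gene fell from 3.21 to 0.793.

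In the next 4 genes by this measure the high library was *Csalc* library b. Csa1G075060 had 12.1, 74.6 and 7.50 normalized counts in *Csalc* against 6.61, 14.8 and 8.95 in WT. Csa3G782630 had 13.0, 71.8 and 9.37 in *Csalc* and 7.56, 23.7 and 14.1 in WT. Csa3G115040 had 33.5, 141 and 13.1 in *Csalc* and 33.1, 25.7 and 20.5 in WT. In Csa1G075060 and Csa3G782630 libraries a and c lay within the WT range, and in Csa3G115040 library a was just above that range and library c below it. Csa3G135120 had the same form, with 7.45, 45.7 and 9.37 in *Csalc* and 4.72, 7.90 and 11.5 in WT. Without library b the ratios of Csa1G075060, Csa3G782630, Csa3G115040 and Csa3G135120 were 0.968, 0.742, 0.884 and 1.05.

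The same form was seen at higher and at lower levels in other genes, named after their values were seen. Csa3G435530 held 104, 448 and 60.9 normalized counts in *Csalc* against 58.6, 80.0 and 98.5 in WT, and Csa1G597730 held 36.3, 139 and 21.6 against 9.45, 37.5 and 28.1. Csa4G016490 held 6.52, 58.7 and 16.9 against 10.4, 8.89 and 6.40. Csa1G575060 held 2.79, 48.5 and 15.9 against 14.2, 5.92 and 3.84. Library b was the highest of all 6 libraries in each of these genes, and at least 1 of the other *Csalc* libraries lay at or below the highest WT library. Csa6G498410 was high in 1 library of each group, with 45.6, 104 and 9.37 in *Csalc* against 8.50, 47.4 and 10.2 in WT. Library b was the highest on both sides of this gene, but the letters do not pair libraries across groups. Few genes had a dominant library other than b. Csa3G872120 held 19.6, 17.7 and 41.2 against 20.8, 6.91 and 10.2, with library c as the only one above the WT range, and CsaUNG024820 held 31.7, 11.2 and 18.7 against 3.78, 11.8 and 10.2, with library a the highest.

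Library b was the highest *Csalc* library in 34 of the 60 recovered genes (56.7%), library a in 15 (25.0%) and library c in 11 (18.3%). Over the 4481 recovered reference genes the shares were 34.7%, 36.2% and 29.1%. In 22 of the 60 genes 1 library held at least 50% of the *Csalc* total, which 12.3% of the recovered reference genes also had, and this library was b in 17 genes, c in 4 and a in 1. Over all 550 recovered reference genes with such a library, the 22 among them, it was b in 51.1%, c in 32.0% and a in 16.9%. By this measure library b was thus the most frequent over the reference genes as a whole too. By the highest value it was not, with 34.7% against 36.2% for library a. Library b was at least 2 times the WT mean in 4.66% of the recovered reference genes, compared with 2.03% for library a and 1.79% for library c. Choosing genes by a high *Csalc* mean favours genes with 1 high library, and how far that choice alone accounts for these shares was not tested.

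**Figure D3:**
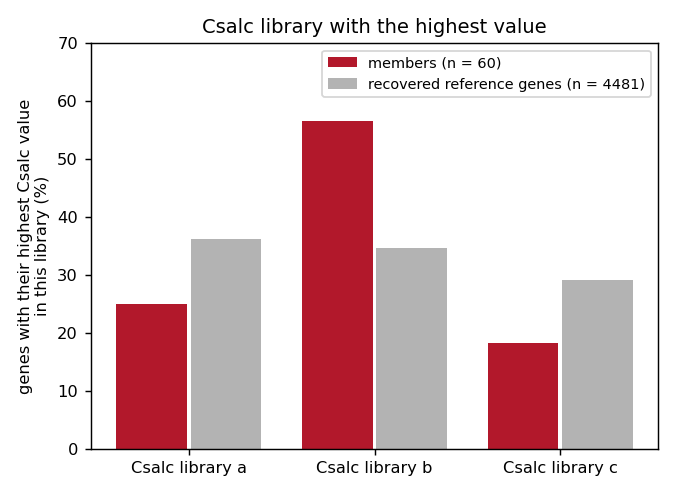
Percentage of genes (y axis) with their highest *Csalc* value in library a, b or c (x axis), for the 60 recovered chosen genes in red and the 4481 recovered reference genes in grey. The red bar of library b, at 56.7%, is above its grey bar at 34.7%, and the red bars of libraries a and c are below theirs.

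Summed over the 60 genes, the *Csalc* libraries a, b and c held 2406, 4611 and 2598 normalized counts and the WT libraries 1256, 1367 and 1168. Library b thus held more than each of the other *Csalc* libraries, and all 3 lay above every WT library. The rule chose these genes by a high *Csalc* mean, so nothing is read from sums that are higher in *Csalc*. The median over the 60 genes of the single library against the WT mean was 2.01 in library a, 3.10 in library b and 1.88 in library c. Library b was at or below the highest WT library in 2 genes, and libraries a and c in 16 genes each. This was not counted by library over the recovered reference genes, of which 45.7% had no *Csalc* library above the highest WT library. The WT libraries were nearer to one another, at 1168 to 1367 in sum. The highest WT value was in library a for 26 of the 60 genes, in b for 24 and in c for 10, and for 41.4%, 30.7% and 27.9% of the recovered reference genes.

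The spread within both groups was wider in these genes than in the recovered reference genes. The median coefficient of variation (the SD as a percentage of the mean) was 45.2% in *Csalc* and 33.7% in WT for the 60 genes, and 24.1% and 20.4% for the 4481 reference genes. It ranged from 5.12% to 133% in *Csalc* and from 4.88% to 122% in WT. The chosen genes and the reference genes were not matched by expression level. Whether level or the choice by a high *Csalc* mean accounts for the wider spread was not tested, so these values describe the set and do not set it apart.

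**Figure D4:**
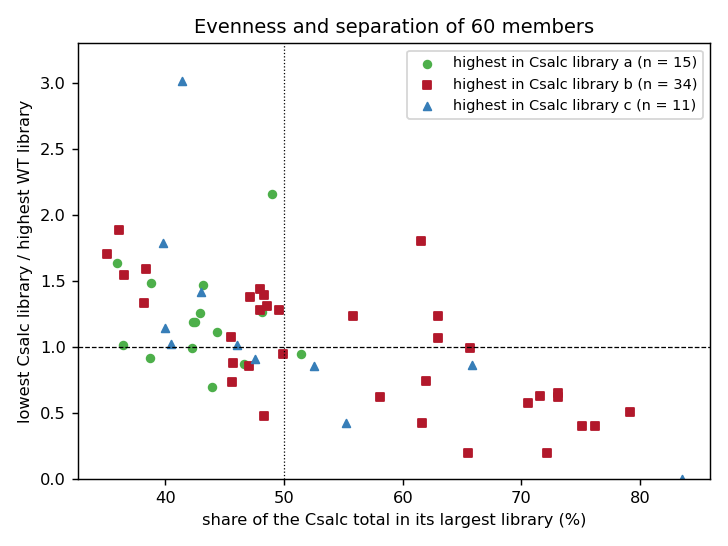
Share of the *Csalc* total in its largest library (x axis, %) against the lowest *Csalc* library divided by the highest WT library (y axis) for the 60 recovered genes, with the marker showing which *Csalc* library is highest. Genes above the dashed line at 1 have separate groups. Of the 22 genes right of the dotted line at 50%, 4 are above the dashed line, and of the 38 genes left of it, 28 are. Both axes use the same library values, and the reference genes were not split this way.

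Evenness and separation, which are measured on the same library values, went together. At a given mean, a dominant library leaves less for the others, so nothing about these genes is read from the counts that follow. Separate groups were found in 5.65% of the 4481 recovered reference genes, which were not split by evenness. Of the 22 genes with at least 50% of the *Csalc* total in 1 library, 4 had separate groups. Of the 38 others, 28 did, and their highest library was a in 14, b in 17 and c in 7. The 4 genes with a dominant library and separate groups were Csa6G136580, described above, and, named after their values were seen, Csa6G085110, Csa2G264570 and Csa1G595820. Csa6G085110 held 95.9, 294 and 76.8 normalized counts in *Csalc* against 62.3, 56.3 and 30.7 in WT. Csa2G264570 held 123, 433 and 131 against 45.3, 85.9 and 115. In both, libraries a and c were above the WT range by less than library b was. By level, the groups were separate in 8 of 21 recovered genes under an overall mean of 20, in 20 of 34 between 20 and 100, and in 4 of 5 at 100 or more. Over the recovered reference genes of the same levels the shares were 5.12%, 6.41% and 4.37%. With 5 chosen genes at the highest level, no order by level is read from these counts.

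When a *Csalc* library was left out, the number of recovered genes that kept a ratio of at least 2 was 48 without library a, 33 without library b and 53 without library c. Without a WT library it was 50 for a, 56 for b and 46 for c. The rule chose all 60 genes by a ratio of at least 2, so these numbers could only fall. The ratio fell below 1 in 3 genes without *Csalc* library b and in 1 gene without library c. Leaving out *Csalc* library b therefore took 27 of the 60 genes below the threshold, more than any other single library did. Libraries were not left out in this way over the reference genes, so this number is a description only. The median log2 ratio of the 60 genes was 1.21 with all libraries and 1.06 without *Csalc* library b, so the median gene was then just above the 2-fold threshold.

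**Figure D5:**
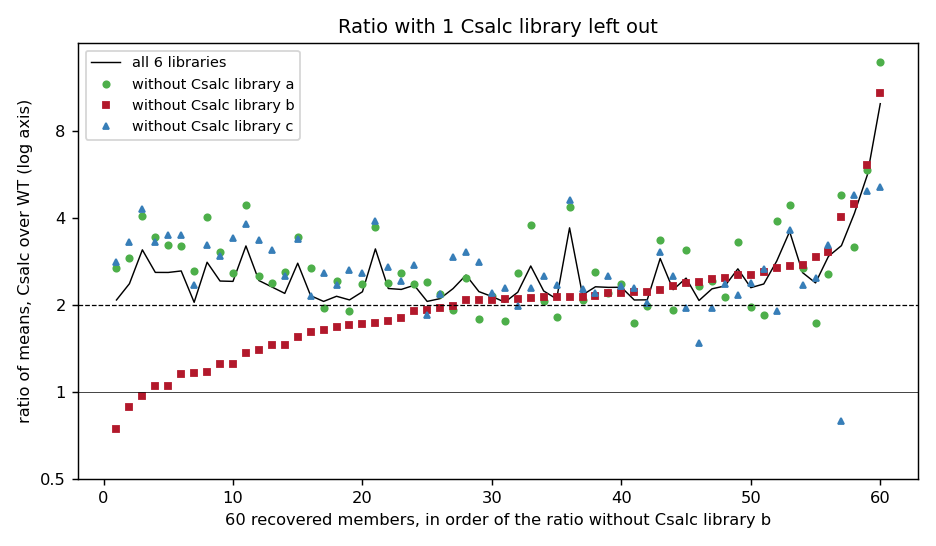
Ratio of the means, *Csalc* over WT (y axis, log axis), for the 60 recovered genes in order of their ratio without *Csalc* library b (x axis), with all libraries (black line) and with *Csalc* library a, b or c left out (markers). Without library b, 33 genes stay at or above the dashed line at 2 and 3 genes lie below 1.

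The ratio of 15 genes stayed at or above 2 whichever of the 6 libraries was left out, and 12 of these had separate groups. They include Csa2G425740, Csa3G362650, Csa6G136580, Csa6G501990, Csa3G710850 and Csa3G168410 of the genes above, as well as Csa4G285730, whose groups overlapped. The other 45 genes dropped below 2 without at least 1 library. Separate groups were found in 32 of all 60 recovered genes and in 5.65% of the 4481 recovered reference genes. Libraries were not left out in this way over the reference genes, so the 15 genes are a description only.

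Values of some of the 15 genes, named after their values were seen, show how much these genes differed. Csa6G490090 held 60.5, 92.3 and 89.0 normalized counts in *Csalc* against 31.2, 45.4 and 28.1 in WT. Its groups were separate, and its ratio stayed between 2.11 and 2.72. Csa1G181330 held 63.3, 132 and 167 against 36.8, 36.5 and 62.7, where *Csalc* library a was only just above WT library c. Csa4G028980 held 21.4, 45.7 and 28.1 against 12.3, 16.8 and 3.84, and its lowest WT value was 3 reads. Csa7G169070 kept a ratio of at least 2.13, with 20.5, 14.9 and 13.1 against 13.2, 1.97 and 1.28. Its groups overlapped, since WT library a was just above *Csalc* library c, while WT libraries b and c held 2 reads and 1 read.

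Close to the threshold, the 3 genes with the smallest ratios inside it were Csa3G914580 and Csa7G073660, both given above, and Csa3G878890. Csa3G878890 had 33.5, 145 and 55.3 normalized counts in *Csalc* against 29.3, 45.4 and 39.7 in WT, a ratio of 2.04. Library b was the high one, and library a lay inside the WT range. Just outside were Csa3G824990 with a ratio of 1.99 (123 and 61.8 normalized counts), Csa2G351740 with 1.99 (47.3 and 23.8) and Csa6G513610 with 1.98 (14.3 and 7.23). The libraries of Csa2G351740 held 43.8, 77.4 and 20.6 in *Csalc* and 34.0, 16.8 and 20.5 in WT, with library b again the highest.

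The gene identifiers carry a chromosome number and a serial number along it. Of the 79 genes, 20 were on chromosome 3, 16 on chromosome 6, 10 on each of chromosomes 1 and 4, 8 on chromosome 2, 7 on chromosome 7 and 6 on chromosome 5, and 2 had an unplaced identifier. Chromosome 3 held 25.3% of the chosen genes and 20.9% of the 17958 genes that could be chosen, and chromosome 6 held 20.3% and 16.7%. Chromosome 5 held 7.59% and 13.3%. No 2 of the chosen genes were next to each other in serial order. Only Csa1G595820 and Csa1G595860, 4 positions apart, were within 5 listed gene models of one another. No share over all genes is given for such neighbours, so nothing is read from these counts. Csa1G595820 held 87.6, 236 and 99.3 normalized counts in *Csalc* against 70.8, 67.1 and 55.0 in WT, and Csa1G595860 held 25.1, 42.0 and 19.7 against 14.2, 10.9 and 14.1. Both had separate groups and library b as the highest *Csalc* library.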

How the data were processed

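RNA-seq libraries from 3 WT and 3 *Csalc* ovary samples were sequenced as read pairs and mapped to the Chinese Long V2 genome. The submitters' processing notes name STAR and DESeq2 without versions or roles. The authors deposited 1 table of normalized read counts as group means, treated here as a signal that is never negative, with their own fold changes and p-values, which were not used. The mutant column is headed spt2 and was taken as *Csalc* because all 28 genes of a list in the study that names *Csalc* have the same means in it (within 0.0001 of the value).

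Ratios were formed as *Csalc* over WT from the deposited means, with no pseudocount. The means are printed with 10 significant digits, and reads per library were sought among all whole-read combinations for means up to 700. All 13242 *Csalc* and 13314 WT means searched had a match, which was single for 56.7% and 100% of them. Single matches are nearly all below 200 in *Csalc*. The 4481 recovered reference genes are therefore weakly expressed ones. The search was tested on simulated data. Counting strand and multiply mapped reads are not given in the sources used here, so genes with near-identical copies are uncertain.

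The genes and lists were chosen with earlier results of these data known. Genes are named by fixed rules: a description at hand, the 10 largest ratios, the 5 highest means, 3 on each side of the threshold, neighbours in serial order, the 5 best separated and the 5 least even. Others named were chosen after their values were seen. No test was made, because the rule used this contrast. No identifier matched the gene annotation at hand, so coordinates and gene sequences are not used here. Alternatives changed the minimum mean, ratio, pseudocount, scaling, combination of reads and libraries. Calculations used Python 3.11.15, numpy 2.4.6, pandas 2.3.3 and numba 0.67.0.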

Additional observations from a re-analysis of the deposited data

How the results depend on the processing

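The number of chosen genes, 79, moved to 140 with a minimum mean of 5, 34 with one of 50 and 438 with none, to 15 with a ratio of at least 3 and 375 with one of at least 1.5, and to 35 with a pseudocount of 10. A pseudocount of 1 (75), a minimum mean of 20 (58), equal totals (91) and centring on the median gene (81) moved it by less than 1.5 times. With 1 library left out, the recovered genes with a ratio of at least 2 numbered 33 to 56, the lowest without *Csalc* library b. All 60 passed that ratio by choice, so the number could only fall. The median log2 ratio was then 1.06 to 1.36. Genes with separate groups numbered 32 to 43 with 1 library left out, against 32 with all libraries. Leaving out a library can only keep or raise that number, so it is no check of the separation. Taking the most or the least even combination gave 40 or 37 genes with separate groups, and counting those separate in every combination, an alternative chosen after seeing the data, gave 36. Genes within 5 positions of another numbered 2, against 0 next to one. The log2 ratio changed sign with 1 library left out in Csa1G075060 (-0.047 to 2.10), Csa3G115040 (-0.18 to 1.72), Csa3G782630 (-0.43 to 1.54) and Csa7G044830 (-0.33 to 2.27). The cause was not tested. No paired analysis was possible because the columns are group means and the recovered libraries carry no replicate number. Single *Csalc* libraries above about 200 normalized counts are mostly not recovered, so the evenness of the abundant genes is not known.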
